A study of Mus musculus with 24 samples.

Results

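Glycolysis breaks glucose down to pyruvate in the cytosol, and hypoxia-inducible factor 1 (HIF-1) is the transcription factor best known for raising its enzymes. The 32 genes described here are Hif1a, which encodes the regulated subunit of HIF-1, the glucose transporters, the enzymes of every glycolytic step, the lactate dehydrogenases and lactate transporters, the enzymes at the entry of pyruvate into mitochondria, and 3 HIF-1 target genes outside metabolism. They were chosen by gene symbol from the 55421 genes of the count table, with earlier results of these data known. All 32 passed the filter on low counts. Aldoa has a second identifier in the table that did not pass it (highest value 0.158 counts per 1000000 counts of a library, CPM), and the identifier used is ENSMUSG00000030695.

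The libraries are RNA-seq of bone marrow-derived macrophages (BMDMs) grown with 10 ng/ml GM-CSF and 2 ng/ml TGF-β1, which gives macrophages that resemble those of the alveoli. Marrow came from wildtype C57/B6/J mice or from mice with a whole-body deficiency of the aryl hydrocarbon receptor (AhR, strain B6.129-Ahr tm1Bra/J), of both sexes and 7 to 14 weeks of age. Cultures were left unstimulated or given 97 EU/ml lipopolysaccharide (LPS) on day 6 for 24 h, and 5 µM of the Ca2+ ionophore A23187 for the last 10 min is part of the treatment protocol given for all samples. That protocol does not say whether the unstimulated cultures received the ionophore too, so LPS and ionophore cannot be told apart in the comparisons of stimulated with unstimulated cells. Each of the 4 groups had 6 libraries from 6 animals in 1 experiment, so the p-values measure the spread between these cultures, and a whole-body deletion does not separate the macrophage's own AhR from that of the rest of the animal.

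In background terms, glucose enters through SLC2A carriers and is trapped by hexokinases. Phosphofructokinase, set by the PFKFB enzymes, commits it to glycolysis, and pyruvate then either becomes lactate and leaves through SLC16A carriers or enters mitochondria through pyruvate dehydrogenase, which the kinase PDK1 switches off. HIF-1 binds DNA as HIF-1α with its partner ARNT, and AhR needs the same partner to bind DNA. Macrophages given LPS are known for a turn to aerobic glycolysis in which HIF-1α takes part. Whether the HIF-1 and glycolysis genes depended on AhR, and whether their LPS response did, are the questions the comparisons address.

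The libraries held 45106052 to 76992663 counts. Macrophage markers were abundant in every group, with summed levels from 12100 to 33700 CPM, while B cell and erythroid markers stayed below 0.6 CPM and T cell markers at or below 5.51 CPM. Most of the macrophage sum was Lyz2, with group means of 13700 to 26500 CPM, beside 306 to 342 CPM for Csf1r and 28 to 55 CPM for Mertk. Summed markers of some other cell types differed between the genotypes, while dendritic cell sums after LPS and fibroblast sums without stimulation overlapped. After LPS the 6 dendritic cell markers summed to 559 to 2440 CPM (median 1420) in wildtype and 100 to 893 CPM (median 227) in AhR-deficient libraries, the 5 mast cell and basophil markers to 14.6 to 50.5 and 3.72 to 11.2 CPM, and the 4 fibroblast markers to 0.792 to 8.88 and 9.85 to 27.5 CPM. Without stimulation the sums were 17.3 to 62 and 9.28 to 15.6 CPM for dendritic cell markers, 5.22 to 22.9 and 1.63 to 3.76 CPM for mast cell and basophil markers, and 0.0135 to 5.68 and 0.159 to 5.81 CPM for fibroblast markers. Single genes made up most of the dendritic cell and fibroblast sums after LPS. Ccr7 had means of 1360 CPM in wildtype and 319 CPM in AhR-deficient libraries. Flt3 (18.6 and 0.0397 CPM), Zbtb46 (11.7 and 3.42 CPM) and Clec9a (2.06 and 1.07 CPM) were also lower in AhR-deficient libraries. Xcr1 (0.0364 and 0.0694 CPM) and Cd209a (0 and 0.0101 CPM) were higher, without counts in 12 and 13 of the 24 libraries. Dcn was at 0.822 and 11.9 CPM, while Col1a1, Col1a2 and Col3a1 were at 0.371, 1.27 and 0.107 CPM and at 0.458, 1.89 and 0.178 CPM. Without stimulation Clec9a was instead higher in AhR-deficient libraries (2.53 and 6.42 CPM). Neutrophil markers are given with Slc2a3. The part of these cell types in the genotype differences of the members was not tested. The 8 alveolar macrophage markers summed to 2080 to 2660 CPM in unstimulated wildtype and 4420 to 5540 CPM in unstimulated AhR-deficient libraries. After LPS the sums were 2330 to 3780 and 4950 to 7250 CPM. Car4, Itgax and Ear2 had the highest means of this list in every group. After LPS Pparg (27.1 and 19.1 CPM) and Fabp4 (2.77 and 2.21 CPM) had lower means in AhR-deficient libraries, and the other markers higher ones. Markers of dividing cells summed to 276 to 440 CPM without stimulation and after LPS to 16.2 to 20 CPM in wildtype and 6.82 to 12.8 CPM in AhR-deficient libraries. In wildtype all of them but Mki67 had lower means after LPS (Mki67, 2.04 CPM without stimulation and 2.46 CPM after LPS). The Ahr count sums all exons, so it does not read the deletion itself: its mean was 28.3 CPM in wildtype and 7.42 CPM in AhR-deficient unstimulated libraries, but 16.8 and 43.1 CPM after LPS (adjusted p = 0.011, and 0.095 without AhR-deficient LPS libraries 31 and 32), and groups are therefore named by their labels throughout. Arnt, the shared partner, had means of 25.2 to 28.3 CPM in the 4 groups. In bulk RNA, a change in the share of cells and a change of RNA per cell cannot be told apart.

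HIF-1 binds the core RCGTG, that is ACGTG or GCGTG, and the AhR-ARNT pair binds GCGTG, so GCGTG does not tell the factors apart. The promoters of 6 genes are shown before their values. They are those with the smallest p for a genotype difference in the LPS response among members with either core in the RefSeq promoter table (GRCm38.p6, 250 bases before to 50 bases after the start). Capitals mark ACGTG and GCGTG on either strand (CACGT and CACGC are the same cores read from the other strand, and in CACGTG the core lies on both strands). 
Pfkfb4 (chr9:108991652-108991951, plus strand): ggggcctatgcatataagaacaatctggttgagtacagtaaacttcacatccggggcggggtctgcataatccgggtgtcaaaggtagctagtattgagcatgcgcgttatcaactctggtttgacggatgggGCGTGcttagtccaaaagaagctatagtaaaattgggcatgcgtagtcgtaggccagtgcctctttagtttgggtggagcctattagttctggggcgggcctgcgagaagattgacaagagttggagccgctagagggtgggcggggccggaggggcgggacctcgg
Hk3 (chr13:55021336-55021635, minus strand): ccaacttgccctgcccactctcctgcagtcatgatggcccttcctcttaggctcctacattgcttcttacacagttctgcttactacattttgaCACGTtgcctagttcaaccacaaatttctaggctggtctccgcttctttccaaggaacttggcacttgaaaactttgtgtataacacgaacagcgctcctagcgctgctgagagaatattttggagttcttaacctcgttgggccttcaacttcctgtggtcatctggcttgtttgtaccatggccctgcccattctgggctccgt
Hif1a (chr12:73907617-73907916, plus strand): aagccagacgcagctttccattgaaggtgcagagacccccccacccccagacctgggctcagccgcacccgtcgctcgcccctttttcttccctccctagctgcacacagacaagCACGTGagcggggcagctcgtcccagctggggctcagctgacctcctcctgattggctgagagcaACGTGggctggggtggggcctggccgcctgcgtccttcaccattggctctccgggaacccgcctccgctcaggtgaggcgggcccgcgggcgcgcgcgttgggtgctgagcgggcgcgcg
Slc2a6 (chr2:27027949-27028248, minus strand): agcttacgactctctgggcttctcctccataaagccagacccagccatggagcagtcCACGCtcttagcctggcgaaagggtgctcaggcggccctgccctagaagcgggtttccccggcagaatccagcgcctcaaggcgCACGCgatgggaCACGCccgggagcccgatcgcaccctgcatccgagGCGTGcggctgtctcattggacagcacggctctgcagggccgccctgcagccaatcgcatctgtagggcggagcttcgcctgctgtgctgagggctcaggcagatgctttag
Slc2a1 (chr4:119108495-119108794, plus strand): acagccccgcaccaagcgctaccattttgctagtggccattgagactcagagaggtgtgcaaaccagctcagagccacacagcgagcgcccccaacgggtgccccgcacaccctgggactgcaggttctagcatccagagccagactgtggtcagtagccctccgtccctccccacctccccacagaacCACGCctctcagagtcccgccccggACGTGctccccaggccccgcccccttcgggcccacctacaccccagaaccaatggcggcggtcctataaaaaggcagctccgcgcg
Aldoc (chr11:78322823-78323122, plus strand): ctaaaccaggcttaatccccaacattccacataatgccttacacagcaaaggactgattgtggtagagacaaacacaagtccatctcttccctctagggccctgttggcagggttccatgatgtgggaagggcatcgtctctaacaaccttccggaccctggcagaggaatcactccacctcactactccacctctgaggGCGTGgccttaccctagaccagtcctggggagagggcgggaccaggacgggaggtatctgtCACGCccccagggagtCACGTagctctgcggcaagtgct
The Hif1a promoter carries ACGTG cores alone, that of Slc2a6 carries 4 GCGTG cores and no ACGTG, and Slc2a1 and Aldoc carry both kinds. The table held 45 promoters of 31 members, Slc2a3 being the one without an entry. Of these, 51.1% held ACGTG and 55.6% held GCGTG, against 25.2% and 48.6% of the promoters of all genes tested and 19.6% and 32.4% of all promoters in the table. Some members are in the list because they are known HIF-1 targets, so the shares with these cores are not independent of the choice. A match is a description of these letters and says nothing about binding in these cells.

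A gene counts as a differentially expressed gene (DEG) where the adjusted p did not exceed 0.05 and the fold change was 2 or more. Fold changes and p-values come from the edgeR quasi-likelihood test over all 24 libraries with Benjamini-Hochberg adjustment over the 16593 genes tested, and are given as log2 values with their standard error (SE). CPM values are scaled by TMM. Comparisons that share a group of libraries share its error.

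Without stimulation, 1 of the 32 genes was a DEG between the genotypes, the glucose transporter Slc2a3, which was lower in AhR-deficient BMDMs. That is 3.12% of the members, where 4.48% of all genes tested were called in either direction, 3.57% lower and 0.916% higher. The libraries of the genotypes did not overlap for 4 members, 2 higher (Pfkfb4 and Slc16a1) and 2 lower (Hif1a and Slc2a3), beside 5.15% of all genes, 1.71% higher and 3.44% lower. With no minimum fold, 4 members passed, against 6.12% of all genes: Hif1a and Slc2a3 were lower, Ldhb and Slc16a1 were higher. The median log2 fold change of the 32 genes was 0.05, beside -0.01 over all genes tested.

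After LPS, 3 genes were DEGs, and all 3 were higher in AhR-deficient than in wildtype BMDMs: Slc2a1, Hk3 and Tpi1. They are 9.38% of the members, where 8.36% of all genes were called in either direction and 2.17% were called higher. The genotypes did not overlap for 3 members, Hk3 and Tpi1 higher and Pfkfb4 lower, beside 7.11% of all genes, 2.59% higher and 4.53% lower. With no minimum fold, 9 members passed, 8 higher and 1 lower (Pfkfb4), against 12.6% of all genes. Of the 32 genes, 25 were higher in the AhR-deficient group, with a median log2 fold change of 0.66, beside -0.05 over all genes. This shift leaned on 2 libraries: without AhR-deficient LPS libraries 31 and 32, which stand apart from the other 4 for many members, 22 of 32 were higher with a median of 0.20 (all genes, -0.10), and 2 were DEGs, Hk3 higher (1.31) and Aldoc lower (-1.16) in AhR-deficient BMDMs. The alternative without both libraries was added after the data had been seen.

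**Figure D1:**
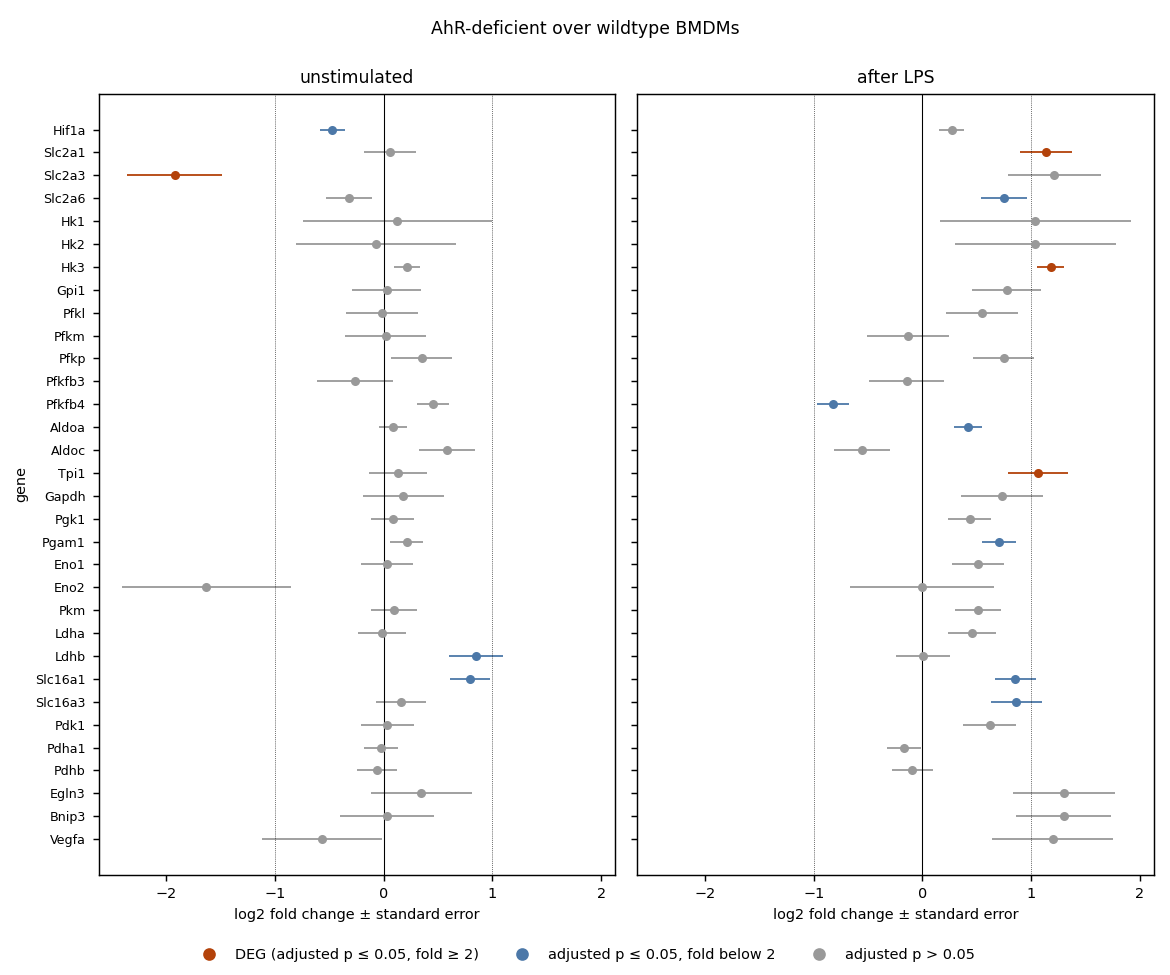
Log2 fold change of AhR-deficient over wildtype BMDMs with its standard error for the 32 genes, without stimulation (left) and after LPS (right). Red points are DEGs, blue points passed the adjusted p with a fold below 2, and grey points did not pass. On the left only Slc2a3 is a DEG, at -1.92, and on the right 25 of the 32 points lie above 0.

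More members were DEGs for LPS than for genotype. In wildtype BMDMs 12 of 32 were DEGs, 8 higher and 4 lower after LPS (37.5%, beside 24.9% of all genes, 13.2% higher and 11.8% lower), and the libraries did not overlap for 8 members that were higher and 5 that were lower (all genes, 11.4% and 11%). In AhR-deficient BMDMs 17 were DEGs, 13 higher and 4 lower (53.1%, beside 30.8% of all genes, 15.1% higher and 15.7% lower), and the libraries did not overlap for 11 higher and 6 lower members (all genes, 14.4% and 14.1%). Without libraries 31 and 32, 10 members were DEGs and higher and 6 were lower, and the median was 0.42 in place of 0.85 (all genes, -0.14). With all libraries the medians were 0.22 and 0.85, where those over all genes were 0.03 and -0.03. In both genotypes 11 genes were DEGs, Pdk1 was one in wildtype alone and Slc2a3, Hk2, Pfkfb4, Tpi1, Slc16a3 and Egln3 were in AhR-deficient BMDMs alone. Whether these responses differ is a question for the interaction term. Scaled by total library size, the median over all genes moved to -0.31 in wildtype and -0.52 in AhR-deficient BMDMs, and the DEGs among members split into 5 higher and 6 lower in wildtype and 8 higher and 7 lower in AhR-deficient BMDMs. Under that scaling Hif1a, Slc2a1 and Pfkp were no longer DEGs in wildtype, nor Hk2, Tpi1, Slc16a3, Pfkp and Egln3 in AhR-deficient BMDMs.

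**Figure D2:**
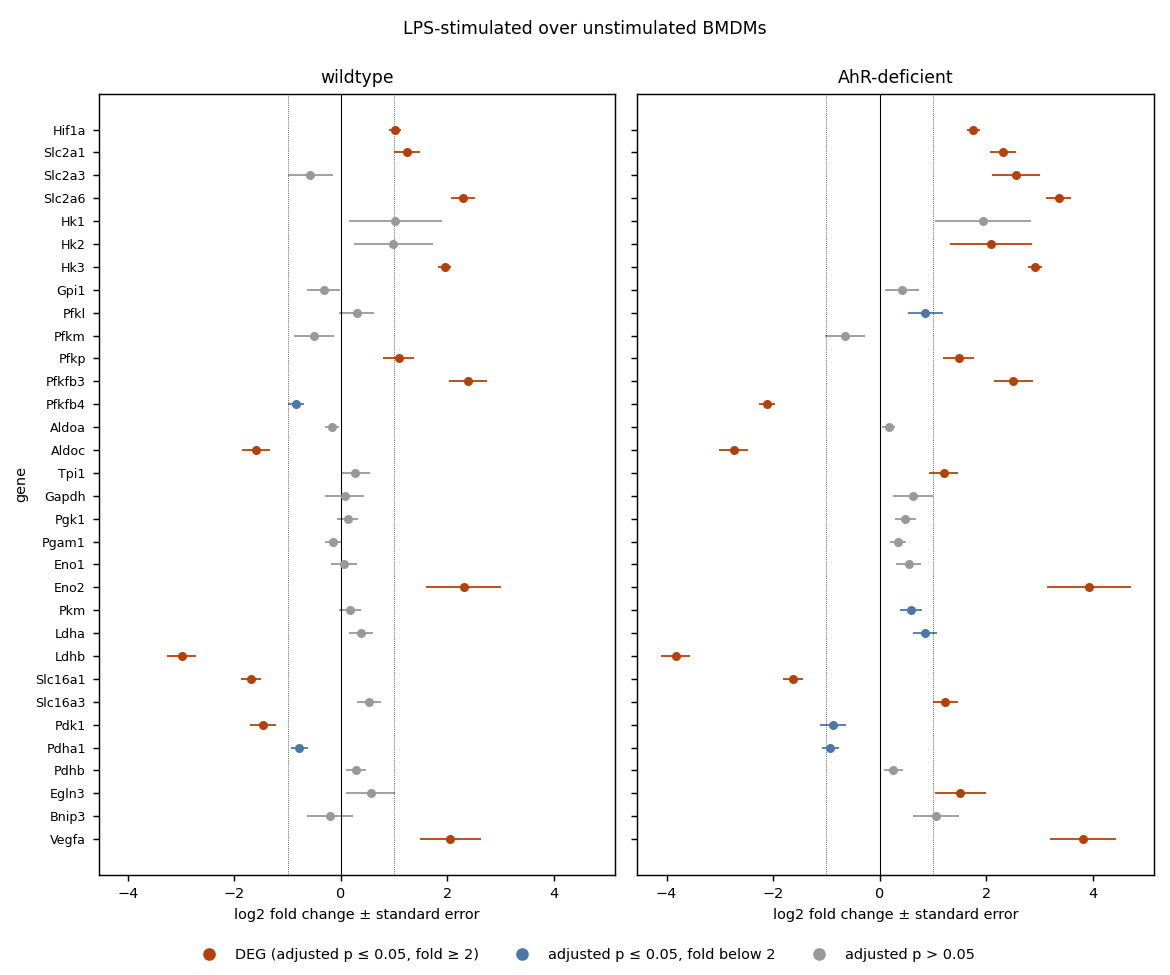
Log2 fold change of LPS-stimulated over unstimulated BMDMs with its standard error for the 32 genes, in wildtype (left) and AhR-deficient BMDMs (right), with colours as in the plot of the genotype comparisons. Hif1a, Slc2a1, Slc2a6, Hk3, Pfkp, Pfkfb3, Eno2 and Vegfa lie above 1 and Aldoc, Ldhb and Slc16a1 below -1 on both sides.

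The interaction, the LPS response of AhR-deficient minus that of wildtype BMDMs on the log2 scale, was called where the adjusted p did not exceed 0.05, with no minimum size. It was called for 5 of the 32 genes, Hif1a, Slc2a3, Slc2a6, Hk3 and Pfkfb4 (15.6%, beside 4.3% of all genes), 4 above 0 and Pfkfb4 below it (all genes, 1.95% and 2.34%). It was above 0 for 26 of 32 genes, with a median of 0.55, beside -0.05 over all genes. Without libraries 31 and 32 the median was 0.11 and 20 of 32 genes were above 0, while 6 genes were called, the same 5 and Aldoc.

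Hif1a, the oxygen-labile α subunit, had very even levels within groups. Unstimulated wildtype libraries ran from 195 to 225 CPM (median 211) and AhR-deficient ones from 119 to 171 CPM (median 152), so the groups did not overlap. The log2 difference was -0.47 ± 0.12 (SE, adjusted p = 0.011), which is below 2-fold. After LPS the ranges were 336 to 484 CPM (median 440) in wildtype and 394 to 592 CPM (median 537) in AhR-deficient libraries and overlapped (0.27 ± 0.12, adjusted p = 0.15). LPS raised Hif1a 2.03-fold in wildtype and 3.39-fold in AhR-deficient BMDMs (log2 1.02 ± 0.12 and 1.76 ± 0.12, adjusted p = 1.8e-07 and 1.9e-11), with no overlap in either. The interaction was 0.74 ± 0.16 (adjusted p = 0.0083) and was above 0 in all 3 runs of 8 consecutive library numbers (17 to 24, 25 to 32 and 33 to 40), at 0.62, 0.75 and 0.86. The wildtype response lay at the 2-fold limit. It fell below it in 5 of 36 alternatives, to 0.68 under scaling by total library size, 0.95 with a minimum mean of 1 CPM, 0.97 in a fit on both wildtype groups alone, 0.98 without wildtype LPS library 29 and 0.998 where the length slope was a covariate. The interaction had an adjusted p of 0.092 under scaling by total library size (range over all alternatives 2e-05 to 0.092).

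Slc2a1 encodes GLUT1, the main glucose carrier of activated macrophages and a textbook HIF-1 target. Its levels were 261 to 424 CPM (median 339) in unstimulated wildtype and 292 to 406 CPM (median 358) in unstimulated AhR-deficient libraries. After LPS they were 549 to 1194 CPM (median 738) in wildtype and 935 to 2495 CPM (median 1928) in AhR-deficient libraries. The genotypes thus overlapped without stimulation and, by the lowest AhR-deficient libraries, also after LPS. The difference after LPS was 2.20-fold (log2 1.14 ± 0.24, adjusted p = 0.0018) and was above 0 in each run of library numbers, at 0.69, 1.62 and 0.95. Without libraries 31 and 32 it was 0.86 (adjusted p = 0.024) and under scaling by total library size 0.92, both below 2-fold. LPS raised Slc2a1 2.36-fold in wildtype and 4.99-fold in AhR-deficient BMDMs (adjusted p = 0.00021 and 4.7e-08), but these responses did not differ at the threshold (interaction 1.08 ± 0.34, adjusted p = 0.074). Leaving out AhR-deficient LPS library 23 or 24 or wildtype LPS library 37 brought that adjusted p to 0.033, 0.037 or 0.036. It was also called in the fit that held the 3 runs as a factor (1.06, adjusted p = 0.039), with DESeq2 (1.09, adjusted p = 0.03) and where the length or GC slope was a covariate (adjusted p = 0.024 and 0.031), within a range over all alternatives of 0.024 to 0.23.

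Slc2a3, encoding the high-affinity carrier GLUT3, showed the largest genotype difference among members without stimulation. Wildtype libraries held 6.53 to 22.5 CPM (median 9.98) and AhR-deficient ones 2.07 to 4.83 CPM (median 2.81), with no overlap (log2 -1.92 ± 0.44, adjusted p = 0.0061). After LPS the wildtype range was 4.60 to 13.6 CPM (median 6.19) and the AhR-deficient range 6.06 to 45.1 CPM (median 12.5). The groups overlapped, with a higher median in AhR-deficient libraries, and the difference did not pass (1.21 ± 0.43, adjusted p = 0.067). The highest values were libraries 31 and 32 at 45.1 and 24.9 CPM, and without them the difference was 0.29 (adjusted p = 0.68). It was called in 7 of 36 alternatives, with adjusted p from 0.024 to 0.68. LPS raised Slc2a3 5.87-fold in AhR-deficient BMDMs (log2 2.55, adjusted p = 4.9e-05, and 1.65 without libraries 31 and 32), while in wildtype the log2 change was -0.58 ± 0.42 (adjusted p = 0.31). The interaction was 3.13 ± 0.61 (adjusted p = 0.0031), and 2.21 without libraries 31 and 32 (adjusted p = 0.011). It was called in 35 of 35 alternatives, with adjusted p from 1.1e-05 to 0.011.

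Neutrophil markers are set beside Slc2a3 without a test of correlation. Their summed level was 1940 to 12900 CPM in unstimulated wildtype, 257 to 807 CPM in unstimulated AhR-deficient, 799 to 8530 CPM in LPS-stimulated wildtype and 148 to 1030 CPM in LPS-stimulated AhR-deficient libraries. Wildtype library 33 was highest for both among unstimulated libraries, at 12900 CPM for the markers and 22.5 CPM for Slc2a3. Among wildtype LPS libraries the markers were highest in library 37 (8530 CPM, Slc2a3 11.4 CPM) and Slc2a3 in library 29 (13.6 CPM, markers 3580 CPM). All 7 markers had a higher mean in unstimulated wildtype than in unstimulated AhR-deficient libraries. The means were 2260 against 278 CPM for S100a8, 1470 against 149 for S100a9, 382 against 37.6 for Ngp, 321 against 14.7 for Mmp8 and 71.9 against 6.06 for Camp, which all encode granule or cytosolic proteins of neutrophils. They were 4.12 against 0.416 CPM for Ly6g and 0.67 against 0.199 CPM for Retnlg. In libraries 31 and 32, where Slc2a3 was highest, the marker sums were 155 and 148 CPM. The part of neutrophil RNA in the difference without stimulation was not tested.

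Slc2a6 encodes GLUT6, a carrier of inner membranes in inflammatory macrophages. It held 37.1 to 60.3 CPM (median 42.2) in unstimulated wildtype and 32.8 to 38.8 CPM (median 37.2) in unstimulated AhR-deficient libraries. After LPS it held 113 to 296 CPM (median 240) and 230 to 497 CPM (median 371). LPS raised it 4.90-fold in wildtype and 10.3-fold in AhR-deficient BMDMs (adjusted p = 1.7e-08 and 3.6e-11) with no overlap in either. The genotype difference after LPS was 0.75 ± 0.21 (adjusted p = 0.021), below 2-fold and with overlapping groups. The interaction of 1.07 ± 0.30 lay close to the threshold (adjusted p = 0.044). It was called in 16 of 35 alternatives, with adjusted p from 0.012 to 0.13, and leaving out single libraries of any group could end the call (wildtype library 17 gave 0.97 with adjusted p = 0.091).

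**Figure D3:**
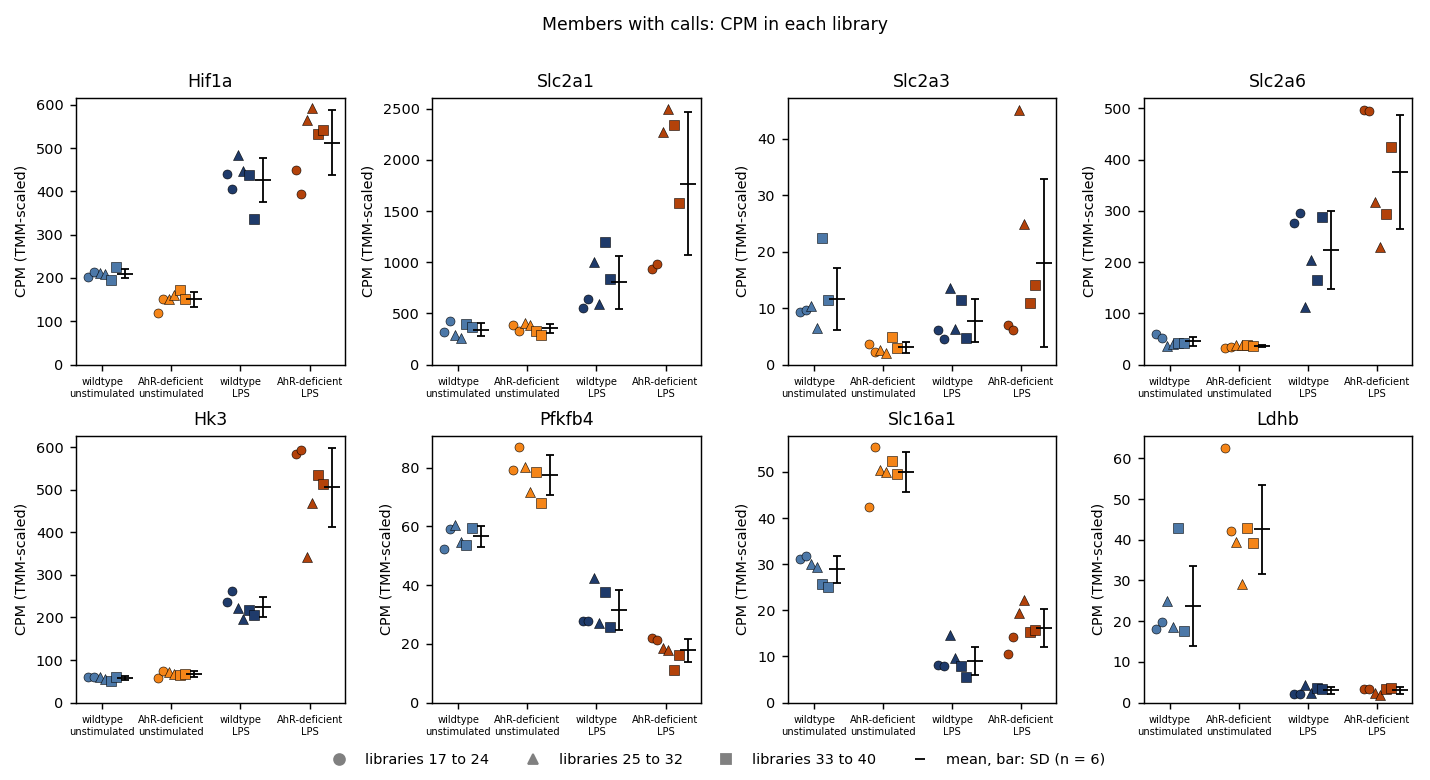
CPM of 8 genes in each of the 24 libraries by group, with symbols for the 3 runs of library numbers and the group mean with its SD (n = 6) beside the points. Hk3 in AhR-deficient LPS libraries lies above every wildtype LPS library, Pfkfb4 lies below them, and Slc2a3 after LPS is highest in the 2 AhR-deficient libraries of the second run.

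The lactate carriers went in opposite directions under LPS. Slc16a3 encodes MCT4, the exporter of lactate from glycolytic cells and a HIF-1 target. Its medians were 630 and 668 CPM without stimulation and 828 and 1792 CPM after LPS (wildtype first, AhR-deficient second), and LPS raised it 2.35-fold in AhR-deficient BMDMs (adjusted p = 0.00013), where the groups did not overlap (601 to 879 against 917 to 2260 CPM). In wildtype the change was 0.53 ± 0.23 (adjusted p = 0.075), and the interaction was 0.70 ± 0.33 (adjusted p = 0.34). The genotype difference after LPS was 0.86 ± 0.23 (adjusted p = 0.014, below 2-fold), and 0.75 without libraries 31 and 32 (adjusted p = 0.066). Slc16a1 encodes MCT1, which carries lactate both ways. It fell with LPS in both genotypes (log2 -1.68 ± 0.19 and -1.62 ± 0.19, adjusted p = 1.6e-07 and 1.7e-07), and the interaction was 0.06 ± 0.26.

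Slc16a1 was also higher in AhR-deficient BMDMs in both states, by less than 2-fold. The unstimulated ranges were 25.1 to 31.9 CPM (median 29.6) in wildtype and 42.3 to 55.3 CPM (median 50.2) in AhR-deficient libraries and did not overlap (0.79 ± 0.19, adjusted p = 0.0078). After LPS they were 5.51 to 14.6 CPM (median 8.06) and 10.5 to 22.2 CPM (median 15.5) and overlapped (0.85 ± 0.19, adjusted p = 0.0025). Without wildtype LPS library 29, the highest of its group, this difference was 1.05 and passed 2-fold.

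Among the hexokinases, which phosphorylate glucose at the start of glycolysis, Hk3, the isozyme typical of myeloid cells, gave the clearest result. Its unstimulated ranges were 49.8 to 61.2 CPM (median 60.3) in wildtype and 56.9 to 74.2 CPM (median 66.7) in AhR-deficient libraries. After LPS they were 196 to 263 CPM (median 220) and 342 to 594 CPM (median 525). Every AhR-deficient LPS library was thus above every wildtype one, and libraries 31 and 32 were here the lowest of their group. The difference after LPS was 2.26-fold (log2 1.18 ± 0.12, adjusted p = 4e-07), with 1.24, 0.94 and 1.30 in the 3 runs and 1.31 without libraries 31 and 32. LPS raised Hk3 3.86-fold in wildtype and 7.55-fold in AhR-deficient BMDMs. Its interaction, 0.97 ± 0.17 (adjusted p = 0.0013), was called in 35 of 35 alternatives, with adjusted p from 1.5e-06 to 0.023. The difference after LPS fell below 2-fold under scaling by total library size alone, at 0.96.

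Hk1 and Hk2, the mitochondria-bound isozymes, had a wide spread within groups. Hk1 ran from 1.61 to 55.7 CPM among unstimulated wildtype libraries and from 17.2 to 328 CPM among AhR-deficient LPS libraries, and none of its comparisons passed. Its LPS change in AhR-deficient BMDMs was 1.94 ± 0.90 (adjusted p = 0.085). It was called in 3 of 36 alternatives, DESeq2 (adjusted p = 0.034) and the fits with the length or GC slope, and was -0.07 without libraries 31 and 32 (adjusted p = 0.96). Hk2, a HIF-1 target, ran from 9.03 to 66.2 CPM and from 29.7 to 360 CPM in the same groups. It was called for LPS in AhR-deficient BMDMs (4.27-fold, adjusted p = 0.029) with overlapping groups. Without library 31 or 32 its adjusted p was 0.099 or 0.087, and without both the log2 change was 0.46 (adjusted p = 0.63). With limma-voom it did not pass (adjusted p = 0.06). The call was also lost without any of the unstimulated AhR-deficient libraries 19, 20, 35 and 36 (adjusted p = 0.058, 0.051, 0.062 and 0.054), within a range over all alternatives of 3.5e-10 to 0.63. Between genotypes after LPS, Hk1 and Hk2 differed by 1.04 ± 0.88 and 1.04 ± 0.74 (adjusted p = 0.6 and 0.49), and without libraries 31 and 32 the sign turned, to -0.98 and -0.61 (adjusted p = 0.54 and 0.67). When each library's length slope entered the fit, a measure described with the spread of the members below, Hk1 and Hk2 were 1.18 and 1.23 higher on the log2 scale in AhR-deficient BMDMs after LPS (adjusted p = 0.0012 and 0.00033). For Hk1 the adjusted p over all alternatives ran from 0.0012 to 0.9, and for Hk2 from 0.00015 to 0.8.

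Phosphofructokinase, the committing step, is built from the Pfkl, Pfkm and Pfkp subunits. Pfkp, the platelet type, was the only one called. It rose with LPS 2.12-fold in wildtype (85.5 to 223 CPM, median 183, against 226 to 456 CPM, median 406) and 2.80-fold in AhR-deficient BMDMs (86.1 to 323 CPM, median 230, against 377 to 869 CPM, median 573), with no overlap (adjusted p = 0.0038 and 0.00016). Without wildtype library 33 the first change was 0.96 on the log2 scale, below 2-fold. Pfkl, the liver type, had means of 134.7 to 244 CPM and changed by 0.86 ± 0.33 with LPS in AhR-deficient BMDMs (adjusted p = 0.04, below 2-fold), and by 0.29 without libraries 31 and 32 (adjusted p = 0.5). Pfkm, the muscle type, stayed at 0.878 to 6.25 CPM over all libraries, and its LPS change in AhR-deficient BMDMs was -0.65 ± 0.38 (adjusted p = 0.17) and -1.11 without the pair (adjusted p = 0.037).

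The bifunctional enzymes that set the activator of phosphofructokinase gave opposite results. Pfkfb3, the inducible form with high kinase activity, rose 5.23-fold with LPS in wildtype (16.7 to 40.4 CPM, median 30.3, against 77.4 to 212 CPM, median 168, adjusted p = 1.1e-05). In AhR-deficient BMDMs it rose 5.69-fold (17.7 to 36.1 CPM, median 23.6, against 65.6 to 311 CPM, median 93.7, adjusted p = 4.4e-06). The responses did not differ at the threshold (interaction 0.12 ± 0.49), although the genotype difference after LPS was -1.55, 0.73 and -0.22 in the 3 runs. Over all libraries that difference was -0.14 ± 0.34 (adjusted p = 0.92), and without libraries 31 and 32 it was -0.98 (adjusted p = 0.022, below 2-fold). The LPS change in AhR-deficient BMDMs was then 1.68 on the log2 scale in place of 2.51.

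Pfkfb4, a form known as a HIF-1 target in many cells, fell with LPS. Unstimulated it held 52.4 to 60.6 CPM (median 56.9) in wildtype and 68.1 to 87.0 CPM (median 79.0) in AhR-deficient libraries, without overlap but short of the threshold (0.45 ± 0.15, adjusted p = 0.077). After LPS the order was reversed and again without overlap, at 25.8 to 42.4 CPM (median 27.9) in wildtype and 11.2 to 22.1 CPM (median 18.2) in AhR-deficient libraries (-0.82 ± 0.15, adjusted p = 0.00039, below 2-fold). The LPS change was -0.85 ± 0.15 in wildtype (adjusted p = 6.4e-05, below 2-fold) and -2.12 ± 0.15 in AhR-deficient BMDMs (adjusted p = 6.7e-11). The interaction of -1.27 ± 0.21 (adjusted p = 0.00072) was called in 35 of 35 alternatives, with adjusted p from 1.9e-07 to 0.0022, and was -0.93, -1.28 and -1.56 in the 3 runs.

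In the steps that split and rearrange the sugar, Gpi1, the glucose phosphate isomerase, was called in no comparison, with means of 339 to 579 CPM. Aldoa, the main aldolase, held 1820 to 3460 CPM over all libraries and differed between genotypes after LPS by 0.42 ± 0.13 (adjusted p = 0.034, below 2-fold). Without libraries 31 and 32 that was 0.25 (adjusted p = 0.26). Aldoc, the aldolase of brain that is also a HIF-1 target, fell with LPS instead. Its ranges went from 176 to 274 CPM (median 199.9) to 49.7 to 110 CPM (median 67.8) in wildtype and from 269 to 384 CPM (median 329.8) to 28.2 to 95.1 CPM (median 34.8) in AhR-deficient BMDMs. The groups did not overlap in either genotype (log2 -1.59 ± 0.26 and -2.74 ± 0.27, adjusted p = 3.2e-05 and 1.6e-08). Between genotypes after LPS Aldoc differed by -0.56 ± 0.26 (adjusted p = 0.19), and by -1.16 without libraries 31 and 32 (adjusted p = 0.00036). The interaction was -1.15 ± 0.36 (adjusted p = 0.083), and -1.75 (adjusted p = 0.00036) without libraries 31 and 32, the range over its alternatives being 0.00036 to 0.16. Leaving out library 31 alone gave -1.47 (adjusted p = 0.0058). It was called in 8 of 35 alternatives, among them the fit that held the 3 runs as a factor (-1.16, adjusted p = 0.022), DESeq2 (adjusted p = 0.032) and limma-voom (adjusted p = 0.035).

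Tpi1, the triose phosphate isomerase, was the third gene higher in AhR-deficient BMDMs after LPS. The LPS ranges were 562 to 957 CPM (median 723) in wildtype and 991 to 2680 CPM (median 1085) in AhR-deficient libraries and did not overlap (2.09-fold, log2 1.06 ± 0.27, adjusted p = 0.0097). Libraries 31 and 32 were at 2315 and 2680 CPM, and the other 4 of the group lay between 991 and 1093 CPM. Without both libraries the difference was 0.51 (adjusted p = 0.18). It also fell below 2-fold without 1 library, at 0.90 without AhR-deficient LPS library 31, 0.82 without 32, 0.99 without wildtype LPS library 37 and 0.99 without 38. It was 0.98 (adjusted p = 0.00055) in the fit that held the 3 runs as a factor, 0.96 with limma-voom and 0.83 (adjusted p = 0.068) under scaling by total library size. The adjusted p over all alternatives ran from 6.5e-06 to 0.18. LPS raised Tpi1 2.30-fold in AhR-deficient BMDMs (366 to 957 against 991 to 2680 CPM, adjusted p = 0.00086), and without library 32 this was 0.97 on the log2 scale. Without both 31 and 32 it was 0.66 (adjusted p = 0.027, below 2-fold), and under scaling by total library size 0.69 (adjusted p = 0.062). The interaction of 0.93 ± 0.38 did not pass (adjusted p = 0.24), but was called where the 3 runs were held as a factor (0.91, adjusted p = 0.033) and with the length or GC slope (adjusted p = 0.0014 and 0.001), and was 0.38 without libraries 31 and 32 (adjusted p = 0.63).

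The second phase of glycolysis, from glyceraldehyde phosphate to pyruvate, held few calls. Pgam1, a phosphoglycerate mutase, was higher in AhR-deficient BMDMs after LPS by 0.70 ± 0.15 (adjusted p = 0.0025), below 2-fold, with overlapping ranges of 183 to 266 CPM (median 204) in wildtype and 251 to 437 CPM (median 354) in AhR-deficient libraries. Pgk1, a phosphoglycerate kinase, Eno1, the main enolase, and Pkm, the pyruvate kinase, were not called, with differences after LPS of 0.43 ± 0.20, 0.51 ± 0.24 and 0.51 ± 0.21 (adjusted p = 0.19, 0.19 and 0.14). Pkm passed for LPS in AhR-deficient BMDMs below 2-fold (0.59 ± 0.21, adjusted p = 0.028), but not without libraries 31 and 32 (0.27, adjusted p = 0.31). Gapdh, an abundant enzyme in most cells, had means of only 9.40 to 16.4 CPM, and counts here come from unique alignments, so reads shared with near-identical copies elsewhere are not counted. Its part in this level was not tested. Eno1 has such a copy, Eno1b, which took 26.9% to 30.1% of their summed level in every library. Eno2, the neuronal enolase, reached at most 0.866 CPM. It rose with LPS in both genotypes (adjusted p = 0.012 and 0.00024), from a group total of 46 counts in wildtype and 14 counts in AhR-deficient BMDMs to 181 and 171 counts.

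Ldha encodes the dehydrogenase subunit that turns pyruvate into lactate and is a HIF-1 target. By unique alignments, which may undercount Gapdh, it was the most abundant member per kb of merged exon length in all 4 groups. Its means per kb were 886 CPM (unstimulated wildtype), 878 CPM (unstimulated AhR-deficient), 1152 CPM (wildtype with LPS) and 1579 CPM (AhR-deficient with LPS). It rose with LPS in AhR-deficient BMDMs by 0.85 ± 0.23 (adjusted p = 0.0035), which reached 2-fold (1.0) without AhR-deficient library 19, and by 0.38 ± 0.22 in wildtype (adjusted p = 0.2). Ldhb, the subunit typical of tissues that use lactate, fell with LPS to about the same level in both genotypes. Its range went from 17.5 to 42.9 CPM (median 19.2) to 2.03 to 4.31 CPM (median 2.86) in wildtype and from 29.1 to 62.5 CPM (median 40.9) to 1.75 to 3.65 CPM (median 3.37) in AhR-deficient BMDMs. No library overlapped (log2 -2.99 ± 0.27 and -3.83 ± 0.28, adjusted p = 4.6e-09 and 7.4e-11), and these were the strongest falls among members. Unstimulated, Ldhb was higher in AhR-deficient BMDMs by 0.85 ± 0.25 (adjusted p = 0.042, below 2-fold), and by 1.10 (adjusted p = 0.0029) without wildtype library 33, the highest of its group. The interaction of Ldhb was not called. It passed in 3 of 35 alternatives (adjusted p from 0.02 to 0.42), among them -1.10 without library 33 (adjusted p = 0.044).

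At the gate to mitochondria, Pdk1, the kinase that inactivates pyruvate dehydrogenase and a HIF-1 target, fell with LPS. Its range in wildtype went from 165.0 to 289 CPM (median 229) to 59.0 to 122 CPM (median 74.1), and in AhR-deficient BMDMs from 197 to 274 CPM (median 235) to 63.6 to 184 CPM (median 136), with no overlap in either. The log2 changes were -1.46 ± 0.25 (adjusted p = 4.4e-05) and -0.88 ± 0.24 (adjusted p = 0.0048, below 2-fold), and the interaction was 0.58 ± 0.34 (adjusted p = 0.55). Without library 31 the second change was -1.01, and without both 31 and 32 it was -1.20 (adjusted p = 0.00066). Pdha1, the catalytic subunit that PDK1 acts on, fell in both genotypes by less than 2-fold (-0.78 ± 0.16 and -0.93 ± 0.16, adjusted p = 0.00037 and 3.9e-05). Pdhb, its partner subunit, did not pass in any comparison, with means of 53.6 to 68.5 CPM.

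The HIF-1 targets outside metabolism had a wide spread in the AhR-deficient LPS group. Egln3, a prolyl hydroxylase that marks HIF-1α for degradation, held 176, 223, 1502, 1619, 739 and 497 CPM in AhR-deficient LPS libraries 23, 24, 31, 32, 39 and 40. Wildtype LPS libraries held 154 to 625 CPM (median 219), and unstimulated ones 136 to 280 CPM (median 234) in wildtype and 149 to 355 CPM (median 321) in AhR-deficient BMDMs. Libraries 23 and 24 were thus as low as unstimulated cells, and 31 and 32 were far above all others. Egln3 was called for LPS in AhR-deficient BMDMs (2.85-fold, adjusted p = 0.011), and without libraries 31 and 32 the log2 change was 0.57 (adjusted p = 0.31), and with limma-voom 1.12 (adjusted p = 0.061). The runs gave -0.73, 2.21 and 1.87. The genotype difference after LPS was 1.30 ± 0.47 (adjusted p = 0.075), and without library 23, 24 or wildtype LPS library 29 its adjusted p was 0.028, 0.037 or 0.034, the alternatives ranging from 0.028 to 0.68.

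Bnip3, a mitochondrial protein that drives mitophagy in hypoxia, showed the same low pair, with 140 and 209 CPM in libraries 23 and 24 and 566 to 831 CPM in the other 4 libraries of that group. Wildtype LPS libraries held 91.8 to 421 CPM (median 160). The difference of 1.30 ± 0.44 after LPS just missed the threshold (adjusted p = 0.053), was 0.55, 2.17 and 1.06 in the runs, and passed in 11 of 36 alternatives (adjusted p from 0.0041 to 0.14), among them the fit that held the 3 runs as a factor (1.35, adjusted p = 0.016). It passed without wildtype LPS library 37 at 1.65, without AhR-deficient LPS library 23 or 24 at 1.49 or 1.45, and without unstimulated library 19 or 33 at 1.30 or 1.29. The LPS change in AhR-deficient BMDMs was 1.06 ± 0.43 (adjusted p = 0.051) and passed in 12 of 36 alternatives, with adjusted p from 0.0076 to 0.21.

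Vegfa, the angiogenic growth factor, rose with LPS in both genotypes. It went from 5.61 to 22.3 CPM (median 8.91) to 29.1 to 73.1 CPM (median 46.9) in wildtype, and from 2.88 to 13.0 CPM (median 7.23) to 21 to 271 CPM (median 47.9) in AhR-deficient BMDMs. The groups did not overlap (4.15-fold and 14.1-fold, adjusted p = 0.006 and 1.7e-05). Libraries 31 and 32 were at 271 and 232 CPM and the other 4 at 21 to 52.9 CPM, and without the pair the second log2 change was 2.27 in place of 3.82. The genotype difference after LPS was 1.20 ± 0.56 (adjusted p = 0.19), with signs that differed between the runs (-0.87, 1.98 and 0.62), and without libraries 31 and 32 it was -0.36 (adjusted p = 0.67).

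**Figure D4:**
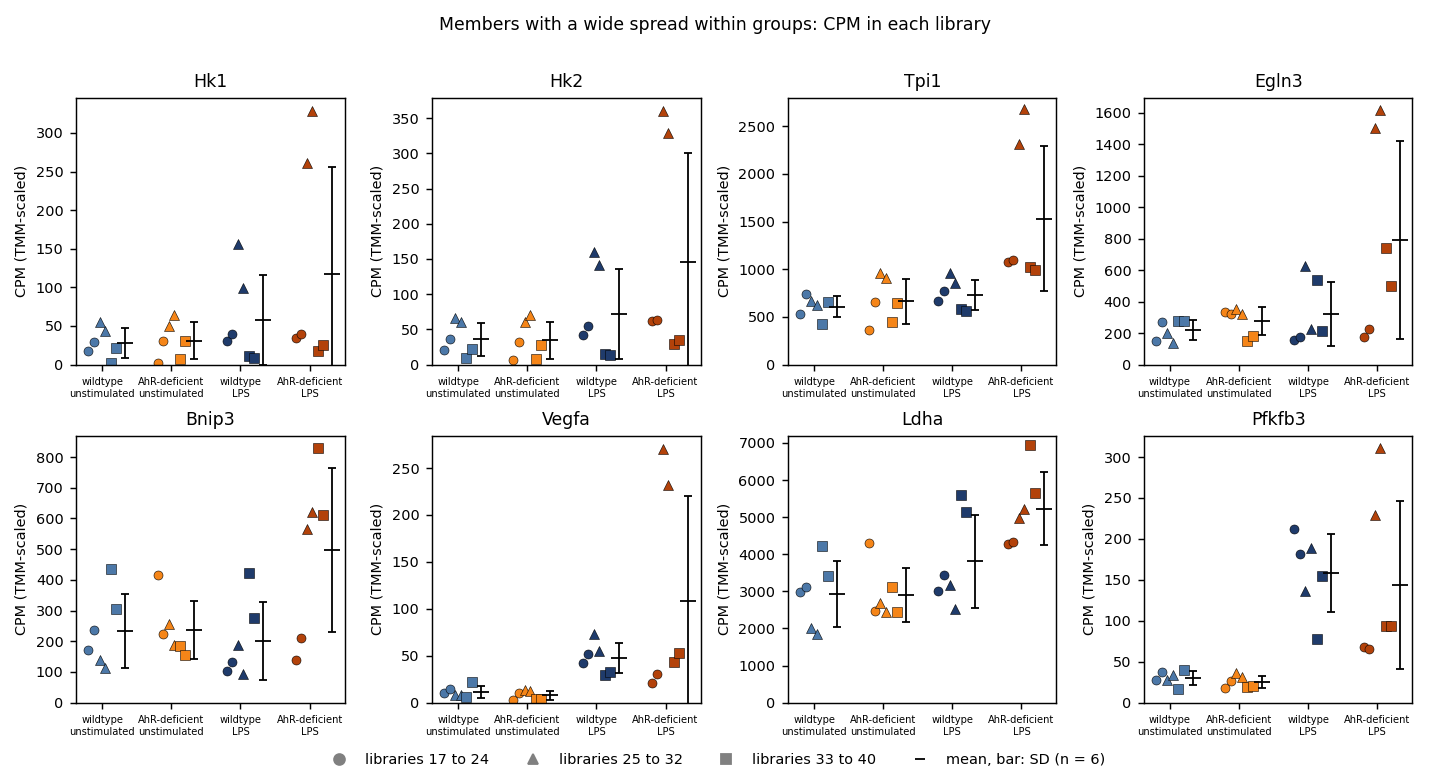
CPM of 8 genes in each of the 24 libraries by group, drawn as in the plot of the genes with even levels. In the AhR-deficient LPS group the second run (triangles, libraries 31 and 32) lies far above the rest for Hk1, Hk2, Tpi1, Egln3 and Vegfa, while Bnip3 is low only in the first run. The axes start at 0, so SD bars that would reach below 0 end there.

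Other genes of the same pathways were taken from 3 lists that hold none of the 32. Of 27 tested genes of the HIF pathway and other HIF targets, 7 were DEGs and higher in AhR-deficient BMDMs after LPS and none was lower (25.9%, beside 2.17% of all genes called higher), with a list median of 0.68. Ak4, a mitochondrial adenylate kinase, was at 62.9 to 103 CPM in wildtype and 113 to 289 CPM in AhR-deficient LPS libraries without overlap (1.43 ± 0.24, adjusted p = 0.00018), and the difference was 1.17 without libraries 31 and 32 (adjusted p = 0.0026). P4ha2, Adm, Ankrd37 and Hilpda were also DEGs, with differences of 2.94, 3.11, 1.27 and 1.56, and without the pair they did not pass (adjusted p = 0.5, 0.18, 0.061 and 0.11).

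The same list held 6 DEGs that rose and 1 that fell with LPS in wildtype (22.2% and 3.7%, beside 13.2% and 11.8% of all genes). In AhR-deficient BMDMs 9 rose and none fell (33.3%, beside 15.1% of all genes called higher). Hilpda, a lipid droplet protein, rose by 3.06 ± 0.48 and 5.47 ± 0.54 (adjusted p = 1.9e-05 and 1.4e-08). P4ha1, a collagen prolyl hydroxylase, rose in AhR-deficient BMDMs by 1.41 ± 0.20 (adjusted p = 2.4e-06). The interaction was called for Hilpda (2.42 ± 0.64, adjusted p = 0.031), but not without libraries 31 and 32 (2.14, adjusted p = 0.086). In unstimulated BMDMs Loxl2, a lysyl oxidase, was the one DEG of the list, higher in AhR-deficient libraries (1.04 to 3.48 against 0.0135 to 0.60 CPM, adjusted p = 0.018). That is 3.7% of the list, beside 4.48% of all genes called in either direction and 0.916% called higher.

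Of 15 tested genes from the list of other glycolysis genes, none was a DEG between genotypes after LPS, where 8.36% of all genes were called, and the list median was -0.22. Without stimulation Fbp1, the fructose bisphosphatase of gluconeogenesis, was higher in AhR-deficient BMDMs (1.98 to 12.7 against 0 to 1.62 CPM, adjusted p = 0.038). Fbp1 fell with LPS to at most 0.456 CPM in wildtype and 0.206 CPM in AhR-deficient BMDMs (adjusted p = 0.025 and 1.9e-05). Of 13 tested genes of pyruvate and lactate handling, Ldhd, the D-lactate dehydrogenase, was the one DEG between genotypes after LPS (7.69%, near the 8.36% of all genes), with 3.07 to 7.76 CPM in wildtype and 11.2 to 14.9 CPM in AhR-deficient libraries (1.21 ± 0.23, adjusted p = 0.00054). It rose with LPS in both genotypes (2.39 ± 0.24 and 3.56 ± 0.25), and its interaction of 1.17 ± 0.32 was called (adjusted p = 0.036). Slc16a7, the carrier MCT2, fell with LPS in both (-3.23 ± 0.32 and -3.05 ± 0.32, adjusted p = 2.1e-08 and 2.8e-08).

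Levels between genes are compared per kb of the merged exon length of each gene. They rest on unique alignments, so genes with near-identical copies can rank too low. After Ldha, the highest means per kb in unstimulated wildtype BMDMs were those of Aldoa (807 CPM per kb, SD 102), Pkm (341, SD 74.4) and Tpi1 (221, SD 41.1), and the lowest that of Eno2 (0.024). Among isozymes the ubiquitous or muscle-type forms Aldoa and Ldha were above Aldoc (65.8 CPM per kb) and Ldhb (15.1). Hk3 was at 15.7, Hk2 at 6.01 and Hk1 at 3.30 CPM per kb. In AhR-deficient LPS libraries Hk3 reached 137.5 CPM per kb (SD 25.2), above Hk2 (24.5, SD 25.9) and Hk1 (13.8, SD 16.2). In every library of that group Hk3 lay above Hk1 and Hk2 per kb, its lowest value being 92.8 CPM per kb and their highest 60.4. In CPM, without division by length, Hk2 was above Hk3 in library 31 (360 against 342 CPM). Slc2a1 was the first of the glucose carriers in all groups, with a mean of 505 CPM per kb in that group beside 117 for Slc2a6 and 2.49 for Slc2a3.

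The spread within groups was shared by many members. For each library the slope of log2(CPM + 0.5) on log2 gene length over the genes tested was taken, and this length slope ran from 0.0952 to 0.585 over libraries, with means of 0.357, 0.533 and 0.257 in the 3 runs and of 0.367 to 0.407 in the 4 groups. Over the 24 libraries, as deviations from group means, 10 members had a correlation of at least 0.8 with it: Hk1, Hk2, Pfkl, Pfkm, Pfkp, Gpi1, Tpi1, Gapdh, Eno1 and Pkm (31.2%, beside 23% of all genes tested). Ldha, Pdha1 and Pdhb had one of at most -0.8 (9.38%, beside 21.3%). The extremes were Hk1 at 0.96 and Pdhb at -0.96. Slopes on GC content went with those on length (r = 0.96), so the pair cannot be told apart. The libraries share their depth and run with these values, so the correlations are given as a description. Hif1a, Hk3, Slc2a6, Slc2a3 and Pfkfb4, the 5 genes with a called interaction, had correlations of 0.48, 0.04, -0.21, -0.04 and 0.26. In the fit that held the length slope as covariate, 8 members were DEGs between genotypes after LPS, all higher, and 18 were called for the interaction.

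**Figure D5:**
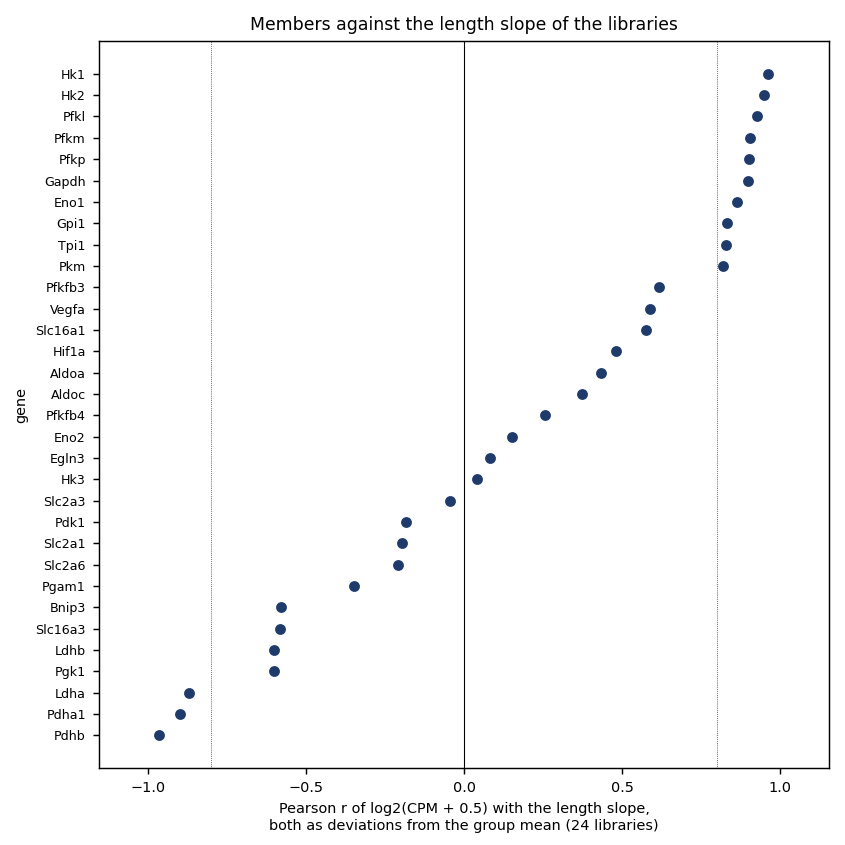
Pearson correlation of each of the 32 genes with the length slope of the libraries, both taken as deviations from the group means over 24 libraries, with dotted lines at -0.8 and 0.8. Hk1, Hk2 and 8 other genes lie to the right of 0.8, and Ldha, Pdha1 and Pdhb to the left of -0.8.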

How the data were processed

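Poly(A) RNA was sequenced from 24 BMDM cultures (strand-specific library kit, paired 100-base reads). The deposited values are raw counts: the authors aligned reads to mm10 with GSNAP and counted fragments over Ensembl 98 genes with featureCounts (2.0.1), keeping unique alignments and leaving out fragments that overlapped several genes, so genes with near-identical copies are undercounted. Groups were taken from the genotype and treatment labels.

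Counts were scaled by TMM, filtered with filterByExpr (16593 of 55421 genes kept) and tested with the robust quasi-likelihood test of edgeR (4.0.16) over all 24 libraries, with Benjamini-Hochberg adjustment. The authors used DESeq2, which is an alternative here (1.42.0), as is limma-voom (3.58.1). For a DEG the adjusted p did not exceed 0.05 and the fold was 2 or more, and the interaction had no minimum fold. The scripts were tested on simulated counts. All 32 genes are named, and of the lists of other pathway genes DEGs alone, at most 6 per list and comparison with the smallest adjusted p. Some genes that this rule names are not reported here, though the counts over the lists include them. The members and lists were chosen with earlier results of these data known. Library numbers fall into 3 runs of 8 (17 to 24, 25 to 32 and 33 to 40), each with 2 libraries per group. The labels do not say whether they are batches, so they served as a check. With 45106052 to 76992663 counts per library, all members but Eno2 had at least 876 counts in every group. Promoters came from RefSeq (GRCm38.p6) and GC content from GENCODE M21. Proteins were not compared here.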

Additional observations from a re-analysis of the deposited data

Results flagged for a closer look

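In 5 genes the LPS response differed between the genotypes by the test of the interaction. The difference on the log2 scale, AhR-deficient minus wildtype, was 0.74 for Hif1a, 3.13 for Slc2a3, 1.07 for Slc2a6, 0.97 for Hk3 and -1.27 for Pfkfb4.

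A single library stood apart from the other 5 in 6 of the 128 groups of 6 libraries screened (32 genes in 4 groups), where chance gives about 1 in 20. The measure is the gap to the nearest library divided by the range of the group, on log2(CPM + 0.5). In unstimulated AhR-deficient BMDMs it was 0.663 for Hif1a in library 19 (119 CPM, the others 152 to 171 CPM). The remaining 5 were all unstimulated wildtype library 33, which was lowest for Hk1 (0.657), Pfkl (0.654), Pfkm (0.638), Pfkp (0.647) and Pkm (0.649). These 5 genes each had a correlation of at least 0.8 with the length slope, so they are not independent of each other.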

How the results depend on the processing

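Of the 38 called results of single genes, 25 kept their call in every alternative, and of 1360 alternative values 58 lost it and 0 reversed. For genes not called, 92 of 4361 alternative values passed. Between genotypes after LPS, the 3 DEGs became 6 with DESeq2, 5 with a minimum mean of 1 CPM, 8 with the length slope and 7 with the GC slope as a covariate (the latter chosen after seeing the data), and 9 with no minimum fold change. They became 2 with limma-voom (Slc2a1 and Hk3), 2 without libraries 31 and 32 (Hk3 higher, Aldoc lower) and 2 with total library size, where none of the 3 passed 2-fold and the calls were Bnip3 (1.10, higher) and Pfkfb4 (-1.01, lower). Without stimulation the 1 DEG became 4 with no minimum fold change. The 5 interactions became 8 in the fit that held the 3 runs as a factor, 18 with the length slope, 16 with the GC slope, 3 with a minimum log2 interaction of 1, and 4 with total library size or with no filter on low counts. The cause was not tested.

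Leaving out each library in turn gave 1 to 2 DEGs between genotypes without stimulation, 2 to 6 after LPS, 11 to 12 for LPS in wildtype, 15 to 18 for LPS in AhR-deficient BMDMs and 4 to 6 interactions. The count after LPS was 6 without AhR-deficient library 23 or 24 or wildtype library 29. No paired analysis was possible because the groups share no library numbers and the labels do not tie cultures to animals. Whether an unstimulated and an LPS culture came from the same animal is not given in the sources used here, and the fit that held the 3 runs as a factor is no pairing by animal. Depth limits Eno2, which had 14 to 181 counts per group.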
